A study of Mus musculus with 130 samples.

Results

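Slc40a1, Cp and Heph were followed through 130 mouse liver RNA libraries. The 3 genes were taken by name as the ferroportin exporter and the multicopper ferroxidases that work beside it, and they were read from a table of 35274 genes for a diet study and a table of 35711 genes for a strain panel. All 3 symbols matched 1 Ensembl identifier in both tables, and all 3 passed the filter on low counts in both.

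In the diet study, male C57BL/6J mice received 1 of 5 diets, with 3 mice per diet. These were chow, whose iron content the labels do not give, a diet of 50 ppm iron, a diet of 500 ppm iron, a diet of 2% carbonyl iron (20000 ppm), and a 2% iron diet whose label names cellulose as its source of fibre. For the panel, male mice of 114 inbred strains ate chow for 4 weeks and then the 2% carbonyl iron diet for 6 weeks, so every panel mouse was iron-loaded. A single mouse stood for each strain, except 2 mice for 129X1/SvJ, and a strain therefore cannot be told apart from the mouse that represents it. Of the strains, 56 were BXD, 20 AXB/BXA, 4 BXH and 3 CXB, all of them recombinant inbred families, and 31 were other inbred strains. BXD strains descend from C57BL/6J and DBA/2J, and AXB/BXA strains from A/J and C57BL/6J, so strains within a family share alleles and are not fully independent. The strain names BXD24/TyJ-Cep290<rd16>/J and BTBR T<+> tf/J carry allele symbols, and both strains were kept. Beyond the strain names, the labels give no genotype change, and they give no age or batch.

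Ferroportin, encoded by Slc40a1, is the transporter that carries ferrous iron out of cells. Hepcidin, the liver hormone encoded by Hamp, binds ferroportin and sends it for degradation, so protein and transcript need not move together. In the liver ferroportin is found on Kupffer cells, the resident macrophages that recycle iron from red cells, and on hepatocytes. Iron leaving through ferroportin is oxidised by a copper enzyme before transferrin binds it. Ceruloplasmin, encoded by Cp, is secreted by hepatocytes into plasma and is also an acute phase protein. Hephaestin, encoded by Heph, is its membrane-bound relative and is best known from enterocytes of the duodenum.

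On GRCm38, Slc40a1 (ENSMUSG00000025993) lies on the minus strand of chromosome 1 from 45908068 to 45926523. Cp (ENSMUSG00000003617) lies on the plus strand of chromosome 3 from 19957054 to 20009145. Heph (ENSMUSG00000031209) lies on the plus strand of chromosome X from 96455359 to 96574485. Cp shares 13201 bases of its span with Hps3 on the opposite strand, and Heph shares 936 bases with Hsf3 on the opposite strand. Whether the counting used strand is not given in the sources used here, so reads from such overlaps could have gone to either gene.

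Ferroportin transcripts are known to carry an iron-responsive element in the 5′ untranslated region, a hairpin bound by iron regulatory proteins, which hold back translation when cell iron is low. The site is shown because the values here are transcript levels and do not record that step. The search used the letters CNNNNNCAGTGN on the sense strand, that is, the bulged C, the upper stem and the hexanucleotide loop. In the annotated 319-base 5′ UTR of Slc40a1-201 it matched once, from base 96, in exon 1 at chr1:45925467-45925496 (GRCm38, minus strand), with the matched letters in capitals.
Slc40a1-201: ttccaacttCAGCTACAGTGTtagctaagt
The annotated 5′ UTRs of Slc40a1-203, Slc40a1-205 and Slc40a1-206, of 198, 160 and 241 bases, held no match. The letters are not rare, since 2603 of 21184 genes with an annotated 5′ UTR (12.3%) held them. The gene-level values do not separate transcripts with and without the site.

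For Cp, the RefSeq promoter table (GRCm38.p6) held 2 windows, and for Slc40a1 and Heph it gave none. A match to TTGCNNAA, the core letters of sites for C/EBP factors, which act in the acute phase response, was found on the minus strand before the second start site. It is shown because Cp moved with acute phase genes over the strains. The plus strand at chr3:19957168-19957197 (GRCm38.p6) is printed with the match in capitals, and the annotation places it in exons of Cp-201, Cp-202, Cp-204, Cp-205 and Cp-207, which start further upstream.
Cp: attagttactcTTTTGCAAcattaaattgt
Of 32851 promoter windows, 9.56% held this motif on either strand. The letters TGACNNNGC (an antioxidant response element core, 10.2% of promoters), TTCNNNGAA (a STAT site core, 7.02%) and ACGTG (a hypoxia response element core, 16.6%) were not found in either Cp window on either strand. A match is a description of the letters and no sign of binding.

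The libraries held 10.4 to 20.4 M estimated counts in the diet study and 9.41 to 20.6 M in the panel, where M is 1000000. The 6 hepatocyte markers listed summed to between 68991 and 93682 CPM (counts per 1000000) in the diet libraries and to between 52290 and 157974 CPM in the panel libraries, and none was at 0 throughout a group. A library labelled BXD65/RwwJ and male, had 3.94 CPM over the Y-linked genes, against 118 to 328 CPM in the others. Leaving it out changed no call for the 3 genes in the comparisons of families. Of 36 relations across strains with other genes, described below, 1 gained a call.

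The transcripts lay at different levels. On the TPM scale (transcripts per 1000000), which takes account of gene length, Cp averaged 545 TPM in the diet study and ranked 130 among 21936 protein-coding genes. Slc40a1 averaged 85.1 TPM and ranked 839. Heph averaged 0.313 TPM and ranked 12866, with 9 to 33 counts per diet library and 4 to 34 per strain. Cp and Slc40a1 were thus abundant liver transcripts, and Heph was near the floor of detection. Hephl1, the third ferroxidase gene of this family, had a median of 0 TPM in both tables.

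Slc40a1 was highest on the 2% iron diets. Its level was 107, 115.4 and 110.3 CPM in the chow mice, 122, 132 and 154 CPM on 50 ppm iron, and 176, 206 and 124 CPM on 500 ppm. On 2% iron it was 437, 384.2 and 363 CPM, and with cellulose 559.8, 462 and 500.2 CPM. Each of the 6 mice on 2% iron, with or without cellulose, lay above each of the 9 mice on the other diets. Here and below, the share of all genes whose mice separate in this way was not computed, so such separations are descriptions. The group means were 111 ± 4.31, 136 ± 16.6, 169 ± 41.6, 395 ± 38.3 and 507 ± 49.4 CPM (SD, n = 3 each), in that order. In TPM they were 32.3, 41.9, 51.6, 129 and 170.5.

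**Figure D1:**
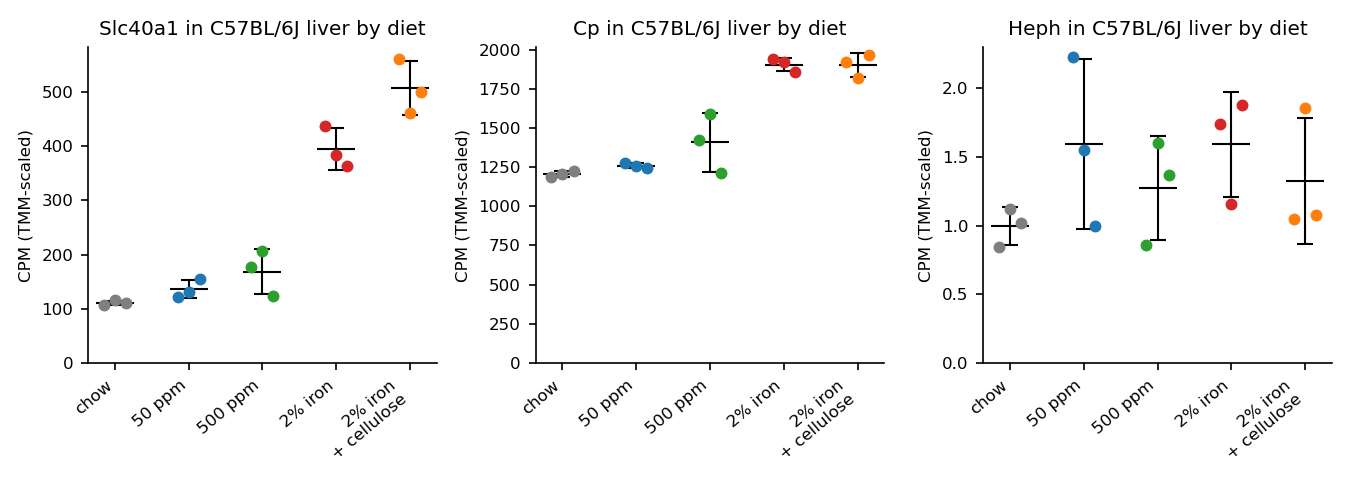
CPM of Slc40a1, Cp and Heph in each of the 15 livers of the diet study (points), with the mean and SD of the 3 mice per diet (bars), on linear axes from 0. Slc40a1 and Cp sit higher in all mice on 2% iron than in the other mice, while the Heph points of the diets overlap, except between chow and 2% iron.

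Relative to 50 ppm iron, Slc40a1 was higher on 2% iron by 1.54 on the log2 scale (SE 0.16, edgeR quasi-likelihood adjusted p = 0.000126), or 2.91-fold. In this comparison 15.7% of the 13560 genes tested were called, and 8.52% of the genes tested were called higher. The whole-liver value does not say which cells changed, because more cells of a type and more RNA per cell cannot be told apart in bulk tissue. Against 500 ppm the rise was 1.23 (SE 0.16, adjusted p = 0.000437, with 11.3% of genes called), and against chow it was 1.83 (SE 0.16, adjusted p = 2.14e-05, with 22.8% called). With cellulose the rises were 1.90 over 50 ppm (adjusted p = 1.48e-05, 29.7% called), 1.59 over 500 ppm (adjusted p = 3.84e-05, 25.8% called) and 2.19 over chow (adjusted p = 2.73e-06, 35% called). These comparisons share groups, so they are not independent of each other.

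Among chow, 50 ppm and 500 ppm, no pair was called for Slc40a1 by edgeR. Slc40a1 differed between 500 ppm and 50 ppm by 0.31 on the log2 scale (95% interval -0.02 to 0.65, adjusted p = 1), with overlapping mice, and by 0.14 to 0.50 over the alternatives. No gene at all was called in that comparison by edgeR (0%), although 428 had an unadjusted p under 0.05, and DESeq2 called 2. Chow mice lay below 50 ppm mice without overlap, but the difference of -0.29 (interval -0.63 to 0.04) had an adjusted p of 0.564, with 0.391% of genes called. Against chow, 500 ppm was higher by 0.61 without overlap (adjusted p = 0.102, with 0.59% called). That last value passed the threshold with DESeq2 (adjusted p = 0.0140) and without 500 ppm replicate 3 (0.79, adjusted p = 0.0265), the mouse with the lowest Slc40a1 of its group.

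The 2% iron diets were set side by side. The mice with cellulose had 462 to 559.8 CPM of Slc40a1 and those without had 363 to 437 CPM, so the groups did not overlap. The difference of 0.36 (SE 0.15, interval 0.03 to 0.69) had an adjusted p of 0.343 over all genes, and 0.0811% of genes were called. Of the steps between neighbouring diets in order of level, the one from 500 ppm to 2% iron was called for Slc40a1. The mice also did not overlap between chow and 50 ppm, and between 2% iron and 2% iron with cellulose, without a call. With so few mice per diet, a separation without a call is no evidence of a difference.

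Cp was also higher on 2% iron, by a smaller fold from a higher level. It stood at 1188, 1207 and 1225 CPM on chow, 1278, 1256 and 1246 CPM on 50 ppm, and 1423, 1585 and 1213 CPM on 500 ppm. On 2% iron it was 1937, 1918 and 1855 CPM, and with cellulose 1922, 1819 and 1965 CPM. The 6 mice on 2% iron again lay above the 9 others. The means were 1207 ± 18.5, 1259.9 ± 16.6, 1407 ± 187, 1903 ± 43.03 and 1902 ± 74.9 CPM (SD, n = 3 each) in the same order, with the widest spread on 500 ppm. In TPM they were 395, 423, 505, 688 and 715.

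The change of Cp from 50 ppm to 2% iron was 0.60 on the log2 scale (SE 0.10, adjusted p = 0.00208), or 1.51-fold. It was 0.66 against chow (adjusted p = 0.000557) and 0.44 against 500 ppm (adjusted p = 0.0126). The comparison with 500 ppm was not called in a fit of those groups alone (adjusted p = 0.105), by limma on log2(TPM + 1) (0.0722), or without 500 ppm replicate 3 (0.33, adjusted p = 0.0580). With cellulose, Cp was 0.59 above 50 ppm (adjusted p = 0.000887), 0.66 above chow (adjusted p = 0.000297) and 0.43 above 500 ppm (adjusted p = 0.00666, and 0.0765 in a fit of those groups alone). Between the 2% iron diets, with cellulose minus without, Cp differed by -0.00 (interval -0.21 to 0.21). The differences of 0.16 between 500 ppm and 50 ppm (0.06 to 0.26 over the alternatives), -0.06 between chow and 50 ppm, and 0.22 between 500 ppm and chow were not called.

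The TPM ratio of Cp to Slc40a1 was 12.2 ± 0.858 on chow, 10.3 ± 1.63 on 50 ppm, 9.92 ± 0.900 on 500 ppm, 5.33 ± 0.391 on 2% iron and 4.20 ± 0.0609 with cellulose (SD, n = 3 each). No mouse on 2% iron reached the ratio of any mouse on the other diets. The ratio was not tested by itself.

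Heph was not called in any of the 10 diet comparisons. It was 0.846 to 1.12 CPM on chow, 0.994 to 2.23 on 50 ppm, 0.861 to 1.60 on 500 ppm, 1.16 to 1.88 on 2% iron and 1.05 to 1.85 with cellulose. For 2% iron against 50 ppm the difference was 0.01 on the log2 scale. Its interval ran from -0.75 to 0.78, so a change of up to about that size in either direction was not excluded. The mice on 2% iron lay above the chow mice without overlap (0.67, interval -0.13 to 1.47, adjusted p = 0.219), which is a description and not a call.

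Genes that surround the exporter and its oxidases were read from lists of the pathway. Among 34 listed genes of hepcidin control, iron uptake, storage and heme handling, 33 were in the diet table and 32 were tested, and from 50 ppm to 2% iron 14 rose, 3 fell and 15 were not called, where 8.52% of all genes were called higher and 7.17% lower. Their median change was 0.33 on the log2 scale, beside 0.01 over all genes tested. The largest rises were those of Id1, a BMP target (2.67), Hmox1, which breaks down heme (2.36), Bmp6, the ligand that drives hepcidin (2.31), Hamp2 (2.25) and Smad7, an inhibitor of the same pathway (2.00). Hamp itself rose by 1.40 (adjusted p = 0.00761), so the transcripts of the exporter and of its hormone were both higher. The 3 that fell were Steap3, an endosomal ferrireductase (-0.63), Aco1, which encodes iron regulatory protein 1 (-0.42), and Tmprss6, a protease that restrains hepcidin (-0.33).

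Ferroxidases need copper, so 8 copper genes were listed. Atp7a, a copper-exporting ATPase, was the one called gene of the 8 (0.80, adjusted p = 0.0100), where 15.7% of all genes were called. Atp7b, the ATPase that loads copper onto ceruloplasmin in hepatocytes, changed by -0.18 (adjusted p = 0.362), and Mt1 and Mt2, the metallothioneins, by 2.42 and 2.72 (adjusted p = 0.0723 and 0.0568).

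Slc40a1 is a known target of the heme-responsive repressor BACH1 and of NRF2. Of 9 other targets, 4 rose from 50 ppm to 2% iron and none fell, where 8.52% of all genes were called higher and 7.17% lower. The 4 were Hmox1, Nqo1 (1.46), the ferritin light chain gene Ftl1 (1.32) and Srxn1 (0.76). The remaining 5 were not called, and their changes ran from -0.30 for Slc7a11 to 0.46 for Gclc. Hmox1 and Ftl1 were also on the iron list.

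The acute phase list, which bears on Cp, gave counts that differed with the diet compared. Of 14 genes, 5 rose from 50 ppm to 2% iron, among them Lcn2 (2.76), Apcs (1.35) and Hpx (0.80), and 2 fell, the serum amyloid genes Saa1 (-2.40) and Saa2 (-2.27). The other 7 were not called. Of all genes, 8.52% were called higher and 7.17% lower in that comparison. Against chow 7 rose and none fell, with 22.8% of all genes called, and against 500 ppm none rose and 2 fell, with 11.3% called. Summed over the list, the level was 13345 to 15381 CPM on 50 ppm and 16764 to 22546 CPM on 2% iron.

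Kupffer cell markers moved with Slc40a1. All 10 listed markers rose from 50 ppm to 2% iron, where 8.52% of all genes were called higher. The rises ran from Spic (1.11) to Marco (3.23), with a median of 1.68, and no marker was at 0 throughout a diet group. Their summed level was 143 to 184 CPM on chow, 127 to 215 on 50 ppm, 116 to 241 on 500 ppm, 535 to 560.3 on 2% iron and 522.9 to 790.9 with cellulose. Divided by this sum, Slc40a1 was 0.684 ± 0.0769 on chow, 0.824 ± 0.120 on 50 ppm, 1.06 ± 0.389 on 500 ppm, 0.721 ± 0.0531 on 2% iron and 0.838 ± 0.187 with cellulose (SD, n = 3 each). The ratio on 2% iron thus lay between those on chow and on 50 ppm. The part of the macrophage signal in the rise of Slc40a1 was not tested.

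Markers of other cells were read in the same comparison with 50 ppm, where 8.52% of all genes were called higher and 7.17% lower. Of the hepatocyte markers, 2 of 6 fell, Apoa1 (-0.86) and Serpina1a (-0.57), and none rose. Of the sinusoidal endothelial markers, 1 of 6 rose, Stab2 (0.80). None of 6 stellate and 4 tested cholangiocyte markers was called against 50 ppm. Against chow 3 of the 6 stellate markers rose, Col1a1 (1.85), Lrat (1.11) and Dcn (0.35), where 22.8% of all genes were called. Of 5 tested erythroid genes, 4 rose, all of them globins (3.55 to 3.83), and Alas2 fell by 1.51. The erythroid sum was 68.0 to 109 CPM on 50 ppm and 320.1 to 475.7 CPM on 2% iron, and its part in these results was not tested either.

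**Figure D2:**
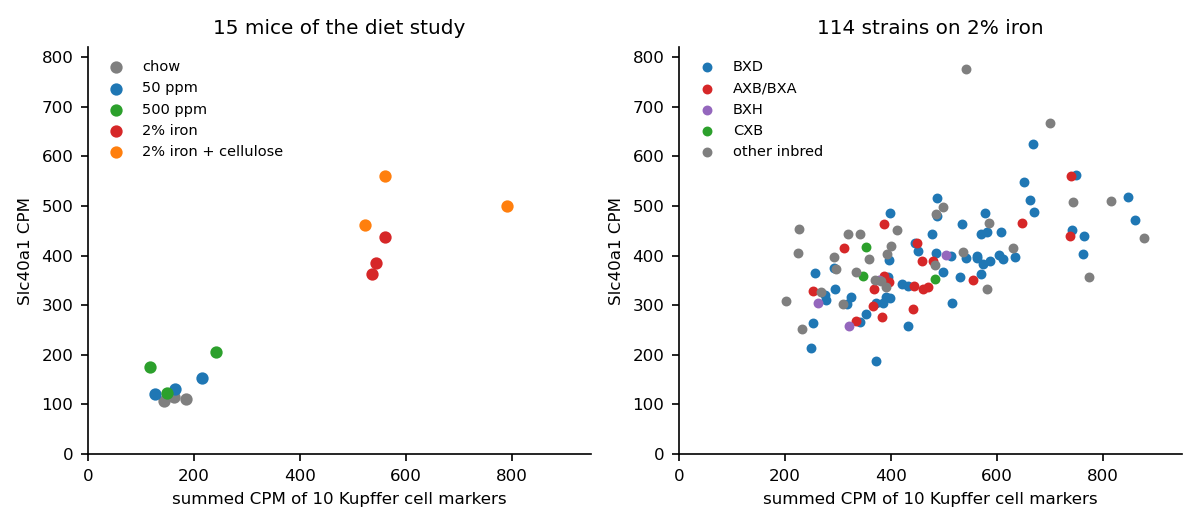
Slc40a1 CPM against the summed CPM of 10 Kupffer cell markers, with 1 point per mouse for the 15 diet mice (left, coloured by diet) and 1 point per strain for the 114 strains on 2% iron (right, coloured by family), on the same linear axes. In the diet study the 6 mice on 2% iron have a marker sum of 522.9 CPM or more, and in the panel Slc40a1 is mostly higher where the marker sum is higher, with NZW/LacJ at 775 CPM above the rest.

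Among the 114 iron-loaded strains, Slc40a1 ran from 187.6 CPM in BXD38/TyJ to 775 CPM in NZW/LacJ, with a median of 390.1 CPM. This is a 4.13-fold range. BUB/BnJ (668 CPM) and BXD48a/RwwJ (625.4 CPM) followed at the top, and BXD19/TyJ (213 CPM) and C57BLKS/J (251.5 CPM) were next at the bottom. The 2 mice of 129X1/SvJ had 419.8 and 312.3 CPM, and for no other strain is there an error, so neighbours in this order cannot be separated.

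The parents of the BXD strains had 509.6 CPM (C57BL/6J) and 337 CPM (DBA/2J), and their descendants spanned 187.6 to 625.4 CPM, beyond both parents in either direction. A/J had 349.7 CPM, and the AXB/BXA strains spanned 267 to 560.1 CPM. In TPM, 113 of 114 strains stood above 51.03, the highest of the 3 C57BL/6J mice on 50 ppm iron. This sets levels across 2 tables that were normalised separately and across strains, and it was not tested. The share of all genes with as many strains above was not computed, so the count is a description and no trait particular to Slc40a1.

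Cp ran from 1381 CPM in BXD73/RwwJ to 7215 CPM in BXD48/RwwJ, with a median of 2111 CPM and a 5.22-fold range. BXD27/TyJ had 5369.8 CPM and NON/ShiLtJ 4614 CPM, so the upper end was carried by few strains. BXD48a/RwwJ, which shares a number with the highest strain, had 1573 CPM. C57BL/6J had 2305 CPM, DBA/2J 2174 CPM and A/J 2365 CPM. The parents were thus close together while the BXD strains reached 7215 CPM. The mice of 129X1/SvJ had 2152 and 1975 CPM. All 114 strains were above 442 TPM, the highest C57BL/6J mouse on 50 ppm iron, under the same limits as for Slc40a1.

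Heph ran from 0.366 CPM in BXD34/TyJ, from 4 counts, to 2.17 CPM in BXA11/PgnJ, with a median of 1.13 CPM. Counting error of the raw counts would give an SD of 0.41 on the log2 scale over the strains. The observed SD of log2 CPM was 0.47, with a prior count of 2 that damps low counts. These values are thus on different scales. At these counts each value of Heph carries a large counting error, and the part of counting error in the spread was not tested.

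**Figure D3:**
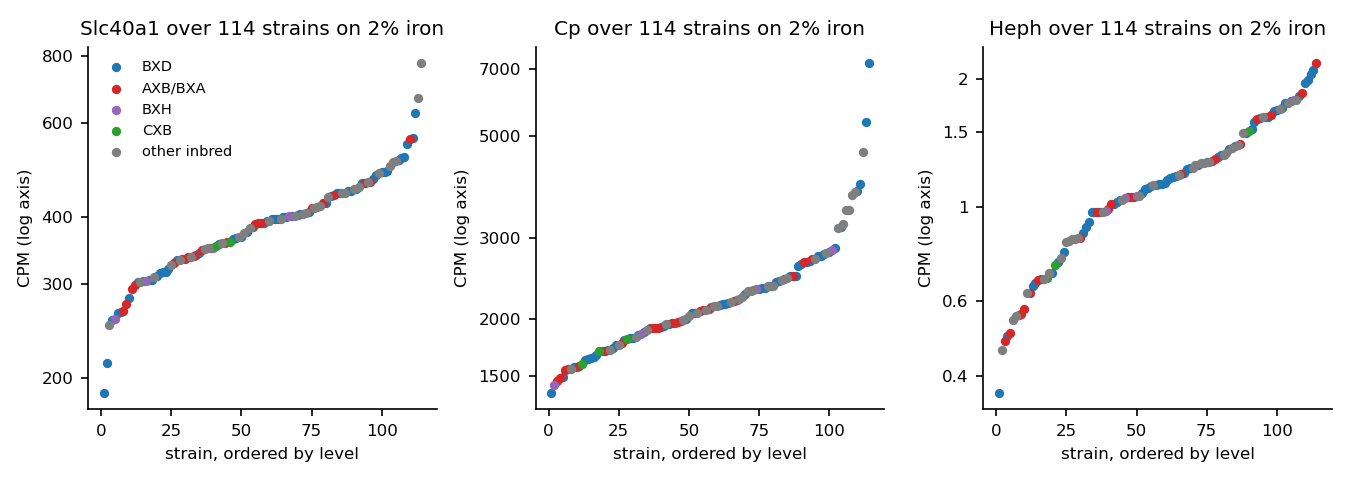
CPM of Slc40a1, Cp and Heph in the 114 strains on 2% iron, ordered from lowest to highest within each panel and coloured by family, on log axes. Slc40a1 rises evenly between 187.6 and 775 CPM with few strains at the ends, Cp bends upward to 7215 CPM in its highest strains, and Heph spans 0.366 to 2.17 CPM.

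The spread between strains was set beside the spread between C57BL/6J mice within a diet. For Slc40a1 the SD of log2 CPM was 0.32 between strains and 0.21 within diets, a ratio of 1.57, where the median over 13410 genes was 1.65. For Cp it was 0.40 against 0.09, a ratio of 4.33, and 1.60% of the genes had a ratio as high. The Cp ratio was 2.52 on log2(TPM + 1) and 8.60 when the mice within the 2% iron groups alone gave the spread. For Heph the ratio was 1.21. The diet mice are of 1 strain, and these ratios were not tested.

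Families differed little. Slc40a1 averaged 390.4 ± 88.2 CPM in BXD (SD, n = 56), 370.2 ± 73.6 in AXB/BXA (n = 20), 328 ± 61.6 in BXH (n = 4), 376 ± 35.2 in CXB (n = 3) and 419.5 ± 103 in the other inbred strains (n = 31). None of the 3 comparisons between the large families was called for Slc40a1 or Heph. Cp averaged 2335 ± 946, 1961 ± 363, 2108 ± 598.4, 1699 ± 105 and 2491 ± 714 CPM in the same families. It was lower in AXB/BXA than in the other inbred strains by 0.35 on the log2 scale (SE 0.12, edgeR adjusted p = 0.0326), in a comparison that called 17.6% of 15686 genes. The call was lost without a filter on low counts (adjusted p = 0.0553) and with limma on log2(TPM + 1) (0.0611). Between BXD and AXB/BXA, Cp differed by 0.25 (adjusted p = 0.150, with 8.14% of genes called), and between BXD and the other inbred strains by -0.09 (adjusted p = 0.510, with 19% called). Of the 14 acute phase genes, 1 was called lower in AXB/BXA than in the other inbred strains and none higher.

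Relations across strains were computed on log2 CPM for 42 pairs, each with a two-sided permutation p adjusted over the pairs. By Pearson's r, 19 were called, 8 of them with Slc40a1, 6 with Cp and 5 with Heph. Ftl1 and Stab2 were left out because their strains fell into separate clusters. The exporter and the ferroxidases were not closely related to each other. Slc40a1 and Cp had r = 0.13 (adjusted permutation p = 0.281) and rho = 0.21 (adjusted permutation p = 0.0442), Slc40a1 and Heph had r = 0.03 (adjusted permutation p = 0.867), and Cp and Heph had r = -0.03 (adjusted permutation p = 0.849). On log2(TPM + 1), Slc40a1 had r = 0.25 with Cp and 0.29 with Heph, and both were called.

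Slc40a1 was higher in strains with more Kupffer cell transcript and more Hmox1. It had r = 0.57 and rho = 0.57 with Cd5l, a secreted macrophage protein, r = 0.55 and rho = 0.61 with Hmox1, and r = 0.53 and rho = 0.53 with Cd68, a lysosomal protein of phagocytes. Each had an adjusted permutation p of 4.67e-05 for r, from the smallest raw p that 100000 resamples can give (1e-05). Adgre1, the F4/80 antigen (r = 0.48), Clec4f, a Kupffer cell lectin (0.38), Bmp6 (0.45), Tfrc, the transferrin receptor (0.31), and Nqo1 (0.28) were also called. Hamp was not (r = -0.08, rho = -0.09, adjusted permutation p = 0.567 for r). The acute phase genes Hpx (rho = 0.28, adjusted permutation p = 0.00714) and Lcn2 (rho = 0.24, adjusted permutation p = 0.0260) were called by rho. They were not called by r (0.21 and 0.18). Without BXD38/TyJ and NZW/LacJ, the strains farthest from the median of Slc40a1, r was 0.58 with Cd5l, 0.53 with Hmox1, 0.54 with Cd68 and 0.21 with Nqo1.

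Within families, Slc40a1 and Cd5l had r = 0.69 in 56 BXD strains, 0.56 in 20 AXB/BXA strains (adjusted permutation p = 0.0514) and 0.51 in 31 other inbred strains. For Hmox1 the values were 0.55, 0.39 (adjusted permutation p = 0.243) and 0.68, and for Bmp6 0.46, 0.33 (adjusted permutation p = 0.343) and 0.66. The direction was the same in the 3 families for these pairs, and the calls were lost in AXB/BXA. For Cd68 the values were 0.68, 0.64 and 0.37, and the call was lost in the other inbred strains (adjusted permutation p = 0.179) and not in AXB/BXA. Adgre1 was called in BXD and the other inbred strains, and Clec4f and Nqo1 in BXD alone. Tfrc was called by r in none of the 3.

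Over whole lists, 9 of the 10 Kupffer markers had a Spearman rho of at least 0.3 with Slc40a1, where 10% of 15685 genes did. Vsig4 was the highest (0.60) and Folr2 the lowest (0.22). Among the 9 BACH1 and NRF2 targets, 1 reached 0.3, Hmox1 (0.61), and Slc7a11 was the lowest (-0.01). Of the sinusoidal endothelial markers 4 of 6 did so, and of the acute phase, stellate and hepatocyte genes none. The 4 include Stab2 (0.41), whose strains fell into separate clusters and which was left out of the relations above. Serpina1a (-0.39), Apoa1 (-0.37) and Ttr (-0.33) of the 6 hepatocyte markers had a rho of -0.3 or below, as did 8.45% of all genes. These shares are descriptions, since genes of one cell type share libraries and move together.

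The marker sum did not order the extremes alone. NZW/LacJ had a Kupffer sum of 542 CPM, rank 36 of 114, and a ratio of Slc40a1 to that sum of 1.43, where the median ratio was 0.818. BUB/BnJ ranked 13 and BXD48a/RwwJ ranked 15 by the sum. BXD38/TyJ, the lowest for Slc40a1, had 373 CPM of markers, rank 80, and a ratio of 0.503. BXD19/TyJ had 250.2 CPM, rank 110.

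Cp followed the acute phase genes over the strains. It had r = 0.84 and rho = 0.78 with Hpx, the heme carrier hemopexin, and r = 0.81 and rho = 0.78 with Lcn2, the siderophore-binding lipocalin, each with an adjusted permutation p of 4.67e-05 for r. Without BXD48/RwwJ and BXD27/TyJ, r was 0.79 with Hpx and 0.78 with Lcn2. Within BXD, AXB/BXA and other inbred strains, r was 0.89, 0.70 and 0.76 with Hpx, and 0.84, 0.77 and 0.78 with Lcn2, and all were called.

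The strains at the top showed this directly. BXD48/RwwJ ranked 1 of 114 for Cp, Lcn2 (3105 CPM), Hpx (17180 CPM) and the acute phase sum (79674 CPM), where the medians were 53.4, 4249 and 21298 CPM. BXD27/TyJ and NON/ShiLtJ ranked 2 and 3 for Cp and for the acute phase sum, with 1128 and 814 CPM of Lcn2. BXD48a/RwwJ had 16.3 CPM of Lcn2 and the lowest acute phase sum of the panel, 12520 CPM. The 3 highest strains for Cp were thus the 3 highest for the acute phase sum, and with 1 mouse per strain a passing state of the mouse and a trait of the strain cannot be told apart.

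**Figure D4:**
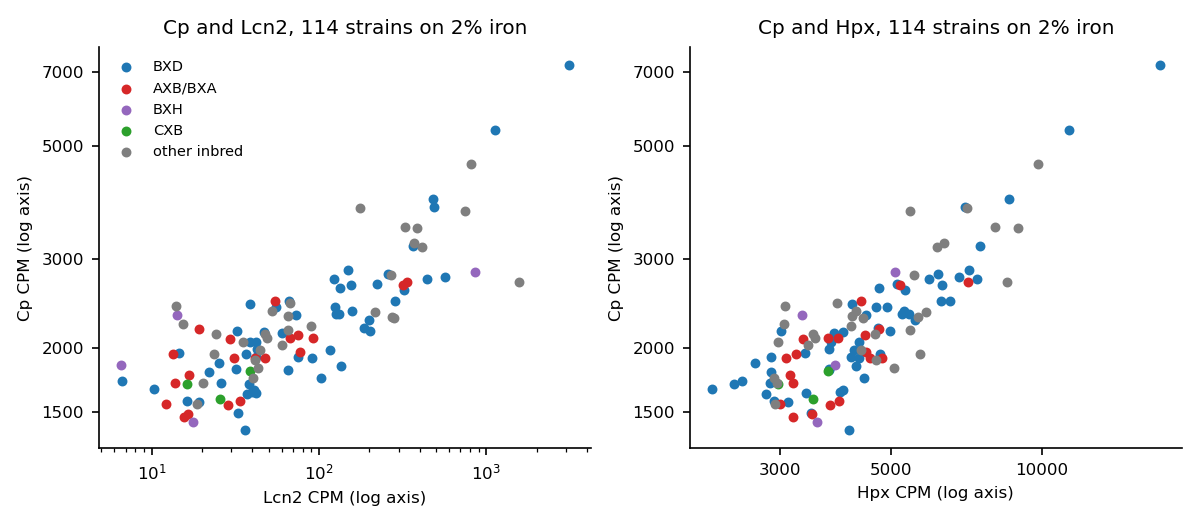
Cp CPM against Lcn2 CPM (left) and Hpx CPM (right), with 1 point per strain for 114 strains on 2% iron, coloured by family, on log axes. Cp is higher where Lcn2 and Hpx are higher, with r of 0.81 and 0.84 on the log2 scale, and BXD48/RwwJ is the point at the upper right of both panels.

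Of the 14 acute phase genes, 13 had a rho of at least 0.3 with Cp, where 7.85% of all genes did, and Crp was the exception (0.17). Erythroid genes reached it in 5 of 6 cases, Kupffer markers in 2 of 10, and sinusoidal endothelial and hepatocyte markers in none. The erythroid sum ran from 3.67 to 2418 CPM over the panel, and its part in the relation was not tested. Cp was also related to Hmox1 (r = 0.48, rho = 0.47) and Tfrc (r = 0.44, rho = 0.41), and inversely to Atp7b (r = -0.33, rho = -0.27, adjusted permutation p = 0.00126 for r). With Tfrc, r was 0.35 in BXD (adjusted permutation p = 0.0239), 0.40 in AXB/BXA (0.243) and 0.37 in the other inbred strains (0.179). Cp and Cd68 were called in AXB/BXA alone (r = 0.60, adjusted permutation p = 0.0411). Their r was 0.16 over all strains, 0.07 in BXD and 0.18 in the other inbred strains. With Atp7b, r was -0.32 in BXD (adjusted permutation p = 0.0408, and 0.321 by rho), -0.30 in AXB/BXA (0.392) and -0.34 in the other inbred strains (0.189), and 88.7% of all genes had a rho with Cp at least as high as that of Atp7b. Col1a1, a collagen gene, had r = -0.31, which was -0.16 without BXD48/RwwJ and BXD27/TyJ, -0.50 in BXD and 0.03 in AXB/BXA (adjusted permutation p = 0.957).

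For Heph, 5 of the relations were called. They were those with Adgre1 (r = 0.37, rho = 0.36), Col1a1 (0.36, 0.33), Cd5l (0.29, 0.28), Bmp6 (0.27, 0.31) and Hmox1 (0.22, 0.20), the last not called by rho (adjusted permutation p = 0.0631). The macrophage genes Cd68 (r = 0.18, adjusted permutation p = 0.116) and Clec4f (0.14, adjusted permutation p = 0.209) were not called. Of the stellate markers, 4 of 6 had a rho of at least 0.3 with Heph, led by Reln (0.47), and of the sinusoidal endothelial and Kupffer markers 3 of 6 and 3 of 10, where 2.44% of all genes did. Each value of Heph carries the counting error given above, at a median of 14 counts per strain. Within families, Col1a1 was called in BXD alone (r = 0.51), with 0.15 in AXB/BXA and 0.19 in the other inbred strains, and so was Bmp6 (0.35, with 0.15 and 0.28). Adgre1 was called in no family taken alone (0.29, 0.51 and 0.37), nor were Cd5l (0.19, 0.35 and 0.34) and Hmox1 (0.28, 0.02 and 0.22). The difference between families was not tested.

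**Figure D5:**
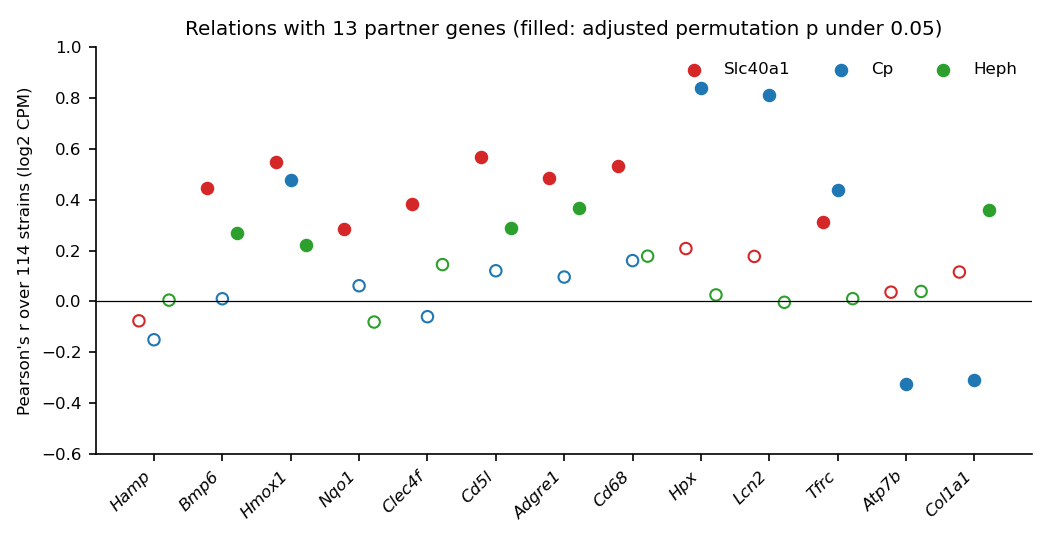
Pearson's r over 114 strains between log2 CPM of Slc40a1 (red), Cp (blue) and Heph (green) and 13 partner genes, with filled points where the adjusted permutation p was under 0.05. Slc40a1 is highest with Cd5l, Hmox1 and Cd68 (0.57, 0.55 and 0.53), Cp with Hpx and Lcn2 (0.84 and 0.81), and Heph with Adgre1 and Col1a1 (0.37 and 0.36).

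The genes most like each transcript were ranked by Spearman's rho over the 114 strains, among 11999 genes that averaged 1 CPM or more. For Slc40a1 they were Akr1b8 (0.69), an aldo-keto reductase, Slc44a2 (0.68), Msr1 (0.68), the macrophage scavenger receptor, Rgl1 (0.67) and Pkm (0.66), a pyruvate kinase gene. The lowest were Os9 (-0.61), Ebp (-0.59) and Slc25a28 (-0.59), the mitochondrial iron importer mitoferrin 2.

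For Cp the highest were Lcn2 and Hpx (0.78 each), Hp (0.76), which encodes haptoglobin, Tmem176b (0.73) and C3 (0.71), which encodes a complement protein, so 3 of the 5 were on the acute phase list. The lowest were Ndufb9 (-0.66) and Uqcrc1 (-0.62), both of the mitochondrial respiratory chain, and Ddt (-0.62). For Heph the highest were Col1a2 (0.57), Ltbp4 (0.48), Col5a1 (0.47), Fbn1 (0.47) and Clec14a (0.47). Of these, Col1a2 and Col5a1 encode collagens, Ltbp4 and Fbn1 encode proteins of extracellular matrix fibres, and Clec14a is an endothelial gene. The lowest were Psmc6 (-0.43), Rcbtb1 (-0.41) and Psmc5 (-0.41). The values are over the same libraries, and a rank says nothing of a shared control.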

How the data were processed

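The 3 genes and the gene lists were chosen with earlier results of these data known. Per the submitters' processing notes, kallisto 0.46 and the mm10 build were used; the notes give no settings. The authors deposited estimated counts per gene, without normalization, and TPM, for the diet study and the panel in separate tables that were never tested together. Estimated counts were rounded to whole numbers, since 26.5% and 27.4% of values were not whole. Symbols came from GENCODE M21 (34845 of 35274 and 35612 of 35711 identifiers matched). Libraries came from total RNA of the large liver lobe and a stranded mRNA kit, per the labels' protocols.

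Tests used edgeR 4.0.16 (quasi-likelihood, TMM factors, filterByExpr, Benjamini-Hochberg over all genes) in R 4.3.3, with a gene called at an adjusted p under 0.05. The 5 diets were fitted together, and so were the 5 strain families, with the 129X1/SvJ mice summed. CPM are TMM-scaled. Relations used log2 CPM (prior count 2) of 114 strains, with those 2 mice averaged, and 100000 permutations. Strains were called clustered, after earlier results were seen, at an Ashman D above 3 with a BIC gain above 10. Alternatives used DESeq2 1.42.0 and limma 3.58.1 on log2(TPM + 1) and log2(TPM + 0.1). Scripts in Python 3.11.15 were tested on simulated data. Genes named beyond the 3 are listed genes with the largest called changes, the fixed partners, and the 5 highest and 3 lowest by rho. Other listed genes, and the strains singled out, were chosen after their values were seen. Intervals are 95% intervals from the fit.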

Additional observations from a re-analysis of the deposited data

Results flagged for a closer look

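Heph in the 4 BXH strains held a value apart from the rest. BXH8/TyJ had 1.79 CPM, from 22 counts, and BXH14/TyJ, BXH10/TyJ and BXH2/TyJ had 0.979, 1.05 and 1.06 CPM, from 14, 14 and 18 counts. On the log2 CPM scale, and not on the CPM printed here, the gap between BXH8/TyJ and its nearest neighbour was 0.870 of the whole range of the group. At such low counts each value carries a large counting error, and the gap was not tested against it. BXH was the 1 family of a size for this check, and chance alone passes it in about 1 of 20 groups. Slc40a1 and Cp did not pass it in these strains.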

How the results depend on the processing

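No paired analysis was possible because each mouse received 1 diet or stood for 1 strain, and the labels give no pairing. The labels also give no replicate numbers, and those used here follow the order of the samples. Over the alternatives, all but 17 of 784 values kept their direction and their side of the threshold or moved by less than the replicate spread. These values are the diet and family contrasts and spread ratios of the 3 genes, the relations among them and with Hamp, and the count of relations called. The relations with the other partner genes are not among them: of their 324 values under alternatives, 38 lost the call, 21 gained it and 1 reversed, and of the lost calls 4 were within BXD, 14 within AXB/BXA and 12 within the other inbred strains. The changes of Slc40a1 and Cp from 50 ppm or chow to either 2% iron diet were called in all 22 alternatives each, between 1.45 and 1.64 for Slc40a1 and between 0.57 and 0.70 for Cp at 2% iron against 50 ppm. Heph was dropped by a minimum of 10 counts in every library.

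The exceptions concern few results. Cp at 2% iron against 500 ppm was not called in the fit of those groups alone (0.44, adjusted p = 0.105) or with limma on log2(TPM + 1) (0.46, 0.0722) and log2(TPM + 0.1) (0.46, 0.0982), and it ran from 0.33 to 0.53 with each mouse left out. Cp with cellulose against 500 ppm was not called in the fit of those groups alone (0.43, 0.0765). Slc40a1 at 500 ppm against chow was called with DESeq2 (0.61, 0.0140) and ran from 0.44 to 0.79 with each mouse left out. Cp in AXB/BXA against other inbred strains was not called without a filter (-0.34, 0.0553) or with limma on log2(TPM + 1) (-0.32, 0.0611). The spread ratio of Cp was 2.52 on log2(TPM + 1) and 8.60 within the 2% iron groups.

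On log2(TPM + 1) and log2(TPM + 0.1), Slc40a1 had r = 0.253 with Cp on both scales (adjusted permutation p = 0.0117 and 0.0121), and 0.288 and 0.276 with Heph (0.00405 and 0.00577). Of 42 relations, 19 were called over all strains, 5 within AXB/BXA and 7 within the other inbred strains, where there are fewer strains, and r for Cp and Col1a1 turned to 0.03 (r = 0.032) in AXB/BXA. The number of copper genes called higher from 50 ppm to 2% iron, 1 in the test used, was 3 in a fit of those groups alone and 3 without a filter on low counts. The cause of the other changes was not tested.

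The counts of all genes called moved by over 1.5 times under some alternatives. Against 50 ppm they ran from 1003 to 2333 for 2% iron (2127 in the test used), from 2466 to 4206 with cellulose (4026), from 4 to 147 for chow (53) and from 0 to 2 for 500 ppm (0). Against 500 ppm they ran from 788 to 2204 for 2% iron (1538) and from 2062 to 3989 with cellulose (3505). Against chow they ran from 1921 to 3320 for 2% iron (3087) and from 15 to 278 for 500 ppm (80). For cellulose against none they ran from 0 to 224 (11), and for the families from 729 to 1606 for BXD against AXB/BXA (1277), from 1907 to 3271 for BXD against other inbred strains (2979) and from 1537 to 2893 for AXB/BXA against other inbred strains (2763).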
